A study of Mus musculus with 6 samples.

Results

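The TGF-beta system of the heart was read here through 10 genes out of 54232 in the count files. They were listed by name, with earlier results of these data known. They are the ligands *Tgfb1*, *Tgfb2* and *Tgfb3*, the receptors *Tgfbr1*, *Tgfbr2* and *Tgfbr3*, and the latent TGF-beta binding proteins *Ltbp1*, *Ltbp2*, *Ltbp3* and *Ltbp4*. Each symbol matched 1 Ensembl gene of the GENCODE M21 annotation. The samples were heart ventricles of wild-type C57BL/6J mice on western diet (WD), 3 mice with Tributyrin and 3 with vehicle, which the sample labels name PBS. All 6 mice had been on WD for 15 weeks when they began to be needle-fed with Tributyrin, a triglyceride that carries butyrate, or with vehicle. Feeding lasted 3 weeks, in a rhythm of 2 days on and 2 days off, at 5 g of Tributyrin per kg of body weight. The age of these mice is not given in the sources used here, and no group on normal chow was sequenced among these samples, so the comparison is between treatments on the same diet. The question was whether Tributyrin altered transcripts of the hearts of obese mice.

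TGF-beta is secreted in an inactive form. Each ligand stays attached to its own propeptide, the propeptide is usually bound to a latent TGF-beta binding protein, and that protein anchors the complex on fibrillin and fibronectin in the matrix until an integrin, a protease or a thrombospondin sets the ligand free. The free ligand binds the kinase receptor encoded by *Tgfbr2*, which recruits and phosphorylates the kinase encoded by *Tgfbr1*, and the signal passes to Smad proteins. *Tgfbr3* encodes betaglycan, a co-receptor without a kinase that presents ligand, above all TGF-beta2. In the heart the pathway is best known for turning fibroblasts into matrix-producing myofibroblasts.

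The difference between groups was widest for *Ltbp2* and next for *Ltbp4*, so the 250 bases before the annotated start of each are shown. Sequences and starts are those of RefSeq on GRCm38.p6, minus strand, written from 5′ to 3′, and *Ltbp4* has other annotated starts too. Capitals mark matches, on either strand, to CAGAC, the core of a Smad binding element, and to the GC box motif of Sp1 family factors, GGGCGG. For the TATA box motif, searched as TATAAA, neither window has a match.
*Ltbp2*, chr12:84876492-84876741: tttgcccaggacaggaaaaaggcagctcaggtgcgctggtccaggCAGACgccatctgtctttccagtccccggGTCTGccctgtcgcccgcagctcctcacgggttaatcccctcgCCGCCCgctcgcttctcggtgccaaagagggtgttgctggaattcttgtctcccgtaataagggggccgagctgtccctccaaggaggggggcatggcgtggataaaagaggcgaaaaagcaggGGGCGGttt
*Ltbp4*, chr7:27337613-27337862: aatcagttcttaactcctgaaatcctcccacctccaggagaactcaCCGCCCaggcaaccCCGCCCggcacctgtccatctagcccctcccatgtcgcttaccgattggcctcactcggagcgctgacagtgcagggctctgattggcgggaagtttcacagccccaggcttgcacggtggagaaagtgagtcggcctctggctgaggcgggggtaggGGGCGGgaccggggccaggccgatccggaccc
The *Ltbp2* window holds CAGAC 2 times and GGGCGG 2 times, and the *Ltbp4* window holds GGGCGG 3 times and CAGAC 0 times. Of 32851 windows of this length before annotated starts, 42.2% hold CAGAC, 32.7% hold GGGCGG and 12.4% hold TATAAA, so such matches are common. Windows were found for 8 of the 10 genes. They describe sequence, not binding.

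Libraries held between 20369746 and 32734485 counts on genes. In 6 of 6 libraries the Y-linked *Ddx3y* had more counts than *Xist*. Markers of ventricular cardiomyocytes summed to between 37224.7 and 44555.0 TPM (reads per kilobase of exon, scaled to the same sum over all genes in each library). The 5 markers of atrial cardiomyocytes summed to 381.9 and 354.5 TPM in vehicle mice 1 and 2, against 136.4 in vehicle mouse 3 and between 64.9 and 134.8 with Tributyrin. In counts scaled by size factors, vehicle mouse 3 was the lowest of the 6 mice for *Myl7*, *Myl4*, *Sln* and *Mybphl* and the highest for *Nppa*. The libraries of vehicle mice 1 and 2 thus held more atrial transcript by this sum than the other 4, although all are labelled ventricle. The log2 fold changes of the 10 genes and the counts of calls are given without these 2 libraries too. That fit, chosen after the data were seen, has vehicle mouse 3 alone in its arm and takes the spread from the Tributyrin mice. Mitochondrial transcripts took between 23.6% and 26.5% of counts with vehicle and between 25.9% and 28.8% with Tributyrin, and since TPM is a share of the library, the groups were compared on counts scaled by size factors rather than on TPM.

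All 10 genes were expressed, with at least 46 counts in every library, and all 10 passed the filter on low counts. Per transcript length, *Ltbp4* stood far above the rest, at 118.3 ± 27.6 TPM (SD, n = 6 mice), higher than 95.6% of the genes tested. The next were *Tgfbr3* at 19.9 ± 3.50, *Tgfbr2* at 17.1 ± 1.88 and *Ltbp1* at 13.1 ± 1.71 TPM. *Tgfb1* at 10.4 ± 1.91 and *Tgfb3* at 9.46 ± 1.55 TPM lay so close to *Ltbp3*, which ran from 7.96 to 11.7 TPM, that the ranges of the 6 mice overlapped. *Tgfbr1* followed with 7.06 ± 1.00, *Tgfb2* with 3.96 ± 0.617 and *Ltbp2* came last with 1.39 ± 0.925 TPM. The ranges of neighbours in this order did not touch only between *Ltbp4* and *Tgfbr3*, between *Tgfbr1* and *Tgfb2*, and between *Tgfb2* and *Ltbp2*.

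**Figure D1:**
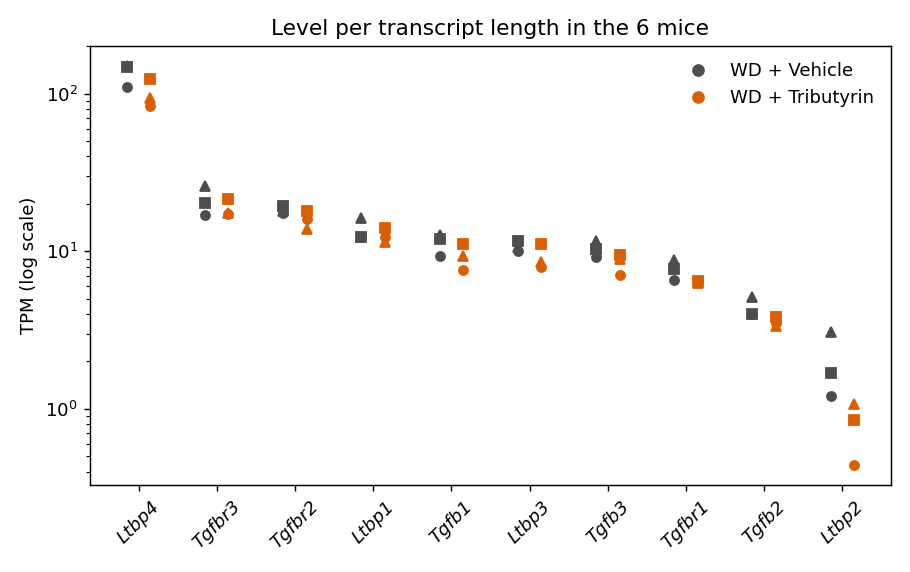
TPM of each gene in each mouse on a log axis, with genes ordered by their mean, vehicle mice in grey and Tributyrin mice in orange, and circle, square and triangle for mice 1, 2 and 3. *Ltbp4* lies between 83.1 and 150.0 TPM in all 6 mice and *Ltbp2* between 0.441 and 3.08.

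The length used for a gene changes the middle of this order. With the longest transcript in place of the union of exons, *Tgfb1* was at 17.3 TPM and *Ltbp1* at 18.0, next to *Tgfbr3* at 18.2 and above *Tgfbr2* at 14.8. *Ltbp4*, *Tgfb2* and *Ltbp2* kept the first place and the last ones. Among the latent binders *Ltbp4* alone took 83.6% ± 1.40 (SD, n = 3) of the summed TPM with vehicle and 81.4% ± 1.36 with Tributyrin. *Ltbp2* took 1.19% ± 0.453 and 0.639% ± 0.260. Among the ligands the split was 43.2% ± 2.01 *Tgfb1*, 16.8% ± 1.34 *Tgfb2* and 40.0% ± 0.754 *Tgfb3* with vehicle, and 43.6% ± 1.92, 16.8% ± 2.10 and 39.6% ± 1.55 in the same order with Tributyrin. The makeup of the ligand pool was thus the same in the groups within the spread of the mice. The split itself depends on the length used. With the longest transcript *Tgfb1* was at 17.3 TPM, *Tgfb3* at 8.08 and *Tgfb2* at 3.83.

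In the quasi-likelihood test of edgeR, with p-values adjusted over all 14133 genes tested after Benjamini and Hochberg, 0 of the 10 genes passed an FDR of 10%, where 0.0% of all genes did, and every one of them had an adjusted p of 0.999. DESeq2, run without the filter on low counts, also called 0 of them at that FDR, and 0.043% of its 25578 genes. At an unadjusted p under 0.05 there were 2 of 10, *Ltbp2* and *Ltbp4*, both lower with Tributyrin, where 4.25% of all genes were found in either direction and 2.28% in the lower one. DESeq2 gave 2 as well, and 1.8% of its 25578 genes, a set that holds genes of very low count. Without vehicle mice 1 and 2, the libraries with more atrial transcript, 0 of the 10 passed an FDR of 10% in edgeR and 3 had an unadjusted p under 0.05, *Tgfbr3* (log2 fold change -0.32) beside *Ltbp2* and *Ltbp4*, where 2.66% of all genes did. The vehicle arm of this fit is 1 mouse, the highest of the 6 for 8 of the 10 genes, *Tgfbr3*, *Ltbp2* and *Ltbp4* among them. In the same fit the log2 fold change was -0.28 for *Tgfb1*, -0.36 for *Tgfb2*, -0.31 for *Tgfb3*, -0.30 for *Tgfbr1*, -0.02 for *Tgfbr2*, -0.20 for *Ltbp1* and -0.06 for *Ltbp3*. The 3 Tributyrin mice then all lay on 1 side of the vehicle mouse for the same 8 of the 10 genes, where 45.8% of all genes did so. This count restates the rank of that 1 mouse. The log2 fold change, Tributyrin over vehicle, was below 0 for 9 of the 10 genes, where 50.4% of all genes were below 0. The median was -0.14, and that of all genes tested was -0.001. The 9 values come from the same 6 mice and are not separate observations. With counts scaled by library size alone, *Ltbp1* was below 0 too.

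**Figure D2:**
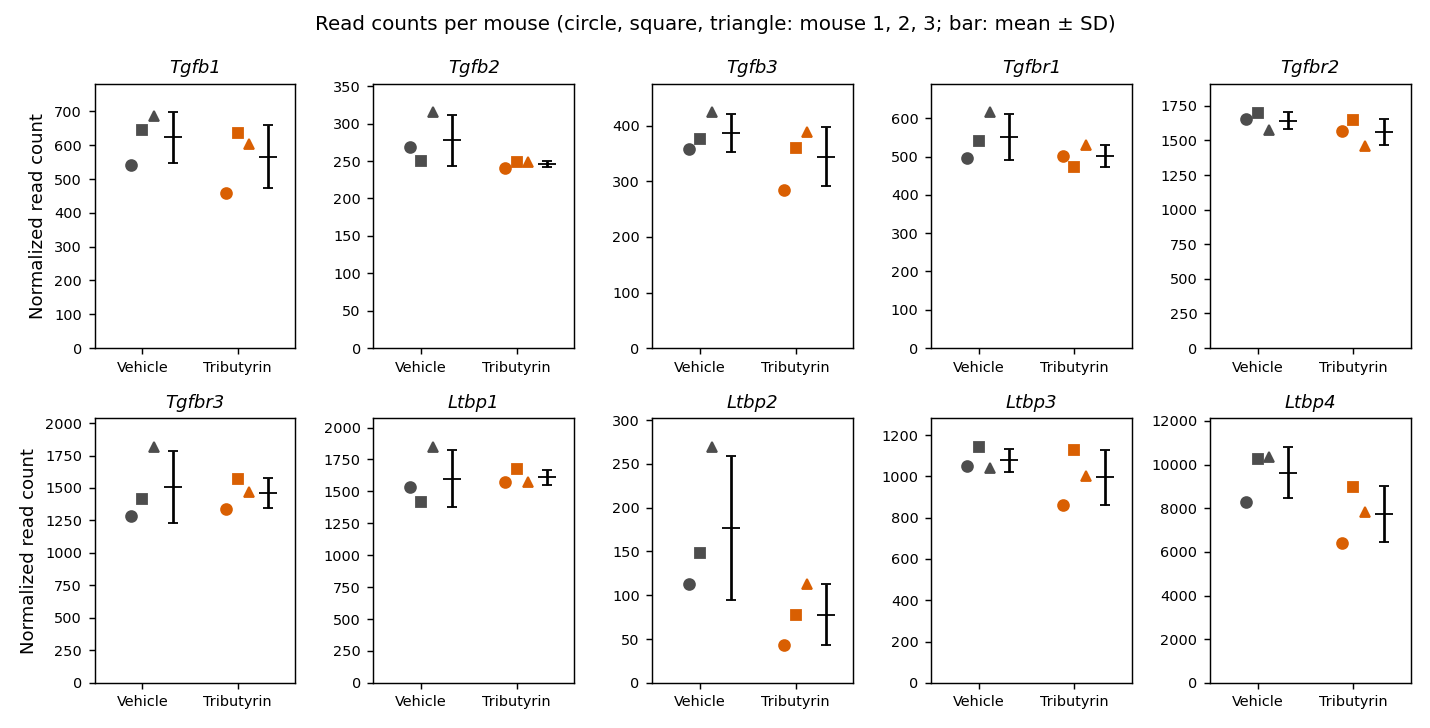
Normalized read counts of the 10 genes in each mouse, vehicle in grey and Tributyrin in orange, each axis starting at 0, with circle, square and triangle for mice 1, 2 and 3 and a bar for the mean and SD of 3 mice. Only for *Ltbp2* and *Tgfb2* do all Tributyrin mice lie below all vehicle mice.

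*Ltbp2* (ENSMUSG00000002020, chr12:84783212-84876532, minus strand, GRCm38) encodes the member of its family that does not bind the TGF-beta propeptide. It associates with fibrillin microfibrils and is known as a gene of activated fibroblasts. Its normalized counts, scaled by DESeq2's size factor of each library, were 113.3, 148.1 and 269.6 in the vehicle mice and 43.0, 77.7 and 112.4 in the Tributyrin mice. Every Tributyrin mouse was below every vehicle mouse, but the highest of the former and the lowest of the latter nearly touched. The means were 177.0 ± 82.1 with vehicle and 77.7 ± 34.7 with Tributyrin (SD, n = 3). The log2 fold change was -1.19 (standard error 0.361, 95% interval -1.99 to -0.39), a fold of 0.439, and edgeR gave an unadjusted p of 0.00784 and an adjusted p of 0.999. It was at rank 101 of the genes tested by p, and 0.488% of all genes had a log2 fold change below -1. The two-sided exact permutation test gave p = 0.1, the smallest that 3 mice against 3 allow.

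*Ltbp2* was also the most variable of the 10 between mice of the same group. Its coefficient of variation was 46.4% with vehicle and 44.7% with Tributyrin, where the other 9 genes had between 1.75% and 18.5%. Between 46 and 217 reads were counted on it per library, the fewest of the 10 genes in each. Vehicle mouse 3 and Tributyrin mouse 1 set much of the difference. Without vehicle mouse 3 the log2 fold change was -0.77 and without Tributyrin mouse 1 it was -0.88. In each of the 6 fits that left out 1 mouse the unadjusted p stayed under 0.05, between 0.00264 and 0.0409. Without any filter on low counts edgeR gave an adjusted p of 3.96e-08. In that setting 0.653% of 25581 genes passed an FDR of 10%, and the spread of each gene was taken almost wholly from the trend across genes. In the vehicle mice, the atrial marker sum was lowest in mouse 3, where *Ltbp2* was highest, but 1 of the 5 markers, *Nppa*, was highest in that mouse. Without vehicle mice 1 and 2, a choice made after the data were seen, the log2 fold change was -1.81 (unadjusted p = 0.00105, adjusted p = 1.0), with the lone vehicle mouse assumed to vary like the others.

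*Ltbp4* (ENSMUSG00000040488, chr7:27305136-27337692, minus strand) encodes a binder of the TGF-beta1 complex that also takes part in the assembly of elastic fibres. The normalized counts were 8271.6, 10273.4 and 10366.3 with vehicle and 6394.1, 8973.5 and 7809.6 with Tributyrin. The groups overlapped, since Tributyrin mouse 2 was above vehicle mouse 1. The means were 9637.1 ± 1183.5 and 7725.7 ± 1291.7 (SD, n = 3). The log2 fold change was -0.32 (standard error 0.126, 95% interval -0.60 to -0.04), and edgeR gave an unadjusted p of 0.0299 and an adjusted p of 0.999. Unlike for *Ltbp2*, this unadjusted p rested on single mice. It was 0.0995 without vehicle mouse 2, 0.107 without vehicle mouse 3, 0.12 without Tributyrin mouse 1 and 0.0512 without Tributyrin mouse 3. Without both vehicle libraries of more atrial transcript the log2 fold change was -0.43, and without any filter on low counts the adjusted p was 0.04.

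*Ltbp1* and *Ltbp3* encode binders that carry latent TGF-beta into the matrix. *Ltbp1* (chr17:75005568-75392512, plus strand) had 1532.1, 1415.9 and 1849.9 normalized counts with vehicle and 1574.7, 1678.5 and 1576.1 with Tributyrin. The Tributyrin mice all lay inside the range of the vehicle mice. Its log2 fold change was 0.01 (standard error 0.0989, 95% interval -0.21 to 0.23), the only one above 0. *Ltbp3* (chr19:5740904-5758532, plus strand) had 1048.8, 1143.7 and 1039.9 with vehicle and 860.3, 1126.6 and 1002.6 with Tributyrin. Its log2 fold change was -0.11 (standard error 0.101, 95% interval -0.34 to 0.11) with overlapping groups. With 1 mouse left out it ran from -0.21 to -0.01. The former was found without Tributyrin mouse 2 (unadjusted p = 0.0419 by edgeR), where 9.56% of all genes had an unadjusted p under 0.05. The latter was found without Tributyrin mouse 1 (unadjusted p = 0.908 by edgeR).

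**Figure D3:**
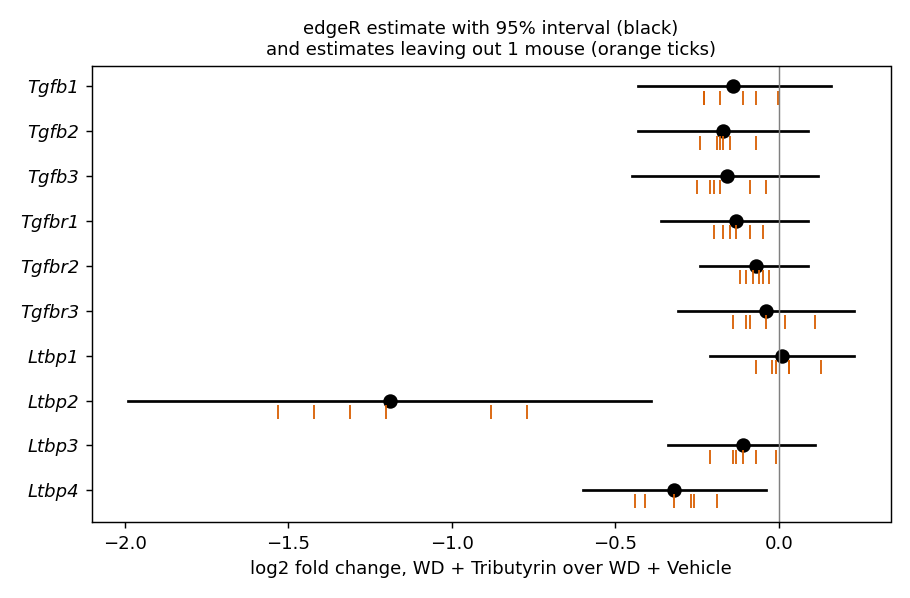
Log2 fold change of Tributyrin over vehicle for each gene, as the edgeR estimate with its 95% interval in black and the 6 estimates that leave out 1 mouse each as orange ticks. Only the intervals of *Ltbp2* and *Ltbp4* lie wholly below 0, and the ticks of *Ltbp2* run from -1.53 to -0.77.

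The ligands all had a lower mean with Tributyrin, and each 95% interval of the log2 fold change included 0. *Tgfb1* (chr7:25687002-25705077, plus strand), the isoform best known from fibrosis and immune cells, had 540.5, 644.4 and 685.8 normalized counts with vehicle and 460.1, 635.0 and 603.4 with Tributyrin. Its log2 fold change was -0.14 (standard error 0.133, 95% interval -0.43 to 0.16). Leaving out Tributyrin mouse 1 took it to almost 0 (unadjusted p = 0.983 by edgeR). *Tgfb3* (chr12:86056745-86079041, minus strand) had 358.6, 376.1 and 424.9 with vehicle and 285.2, 360.0 and 388.9 with Tributyrin, and its log2 fold change was -0.16 (standard error 0.129, 95% interval -0.45 to 0.12). For both genes the lowest of the 6 mice was Tributyrin mouse 1 and the highest was vehicle mouse 3.

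*Tgfb2* (chr1:186622792-186705989, minus strand), a ligand known from heart valve and outflow tract development, was the other gene whose groups did not overlap. Its normalized counts were 268.2, 249.7 and 315.6 with vehicle and 241.3, 248.5 and 248.9 with Tributyrin. The gap between the groups was under 1 normalized count, and the mean went from 277.8 ± 34.0 to 246.2 ± 4.32 (SD, n = 3). The log2 fold change was -0.17 (standard error 0.117, 95% interval -0.43 to 0.09), with an unadjusted p of 0.18 by edgeR and p = 0.1 in the two-sided exact permutation test. Of the 10 genes, 2 had groups that did not overlap, both with Tributyrin lower, where 8.91% of all genes tested did so in either direction and 4.65% in the lower one.

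Among the receptors, *Tgfbr1* (chr4:47353222-47414931, plus strand), which encodes the type I kinase, had 496.8, 540.5 and 616.2 normalized counts with vehicle and 501.2, 473.3 and 531.1 with Tributyrin. Its log2 fold change was -0.13 (standard error 0.102, 95% interval -0.36 to 0.09). *Tgfbr2* (chr9:116084293-116175360, minus strand), for the type II kinase, had 1656.8, 1697.4 and 1574.1 with vehicle and 1571.0, 1644.7 and 1460.3 with Tributyrin. It was the steadiest of the 10 genes, with a 1.16-fold range over the 6 mice. Its log2 fold change was -0.07 (standard error 0.0745, 95% interval -0.24 to 0.09). *Tgfbr3* (chr5:107106570-107289629, minus strand) had 1283.7, 1416.7 and 1817.6 with vehicle and 1338.1, 1570.7 and 1470.6 with Tributyrin. Its vehicle mice enclosed the Tributyrin mice on both sides. The log2 fold change was -0.04 (standard error 0.122, 95% interval -0.31 to 0.23), and it was 0.11 without vehicle mouse 3 and 0.02 without Tributyrin mouse 1. The intervals leave room for a change of either direction in each receptor.

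Single mice recurred at the ends of the range. Of the 10 genes, 8 were highest in vehicle mouse 3 and the other 2 in vehicle mouse 2. Tributyrin mouse 1 was the lowest mouse for 6 genes, and no other mouse was lowest for more than 1. The deviation of *Ltbp2* from its own mean over the 6 mice was 1.30 log2 units in vehicle mouse 3 and -1.35 in Tributyrin mouse 1. *Ltbp4* deviated by 0.28 and -0.42 in the same mice, *Tgfb1* by 0.22 and -0.36, and *Tgfb3* by 0.23 and -0.35. *Tgfbr2* did not follow, with -0.02 and -0.03.

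**Figure D4:**
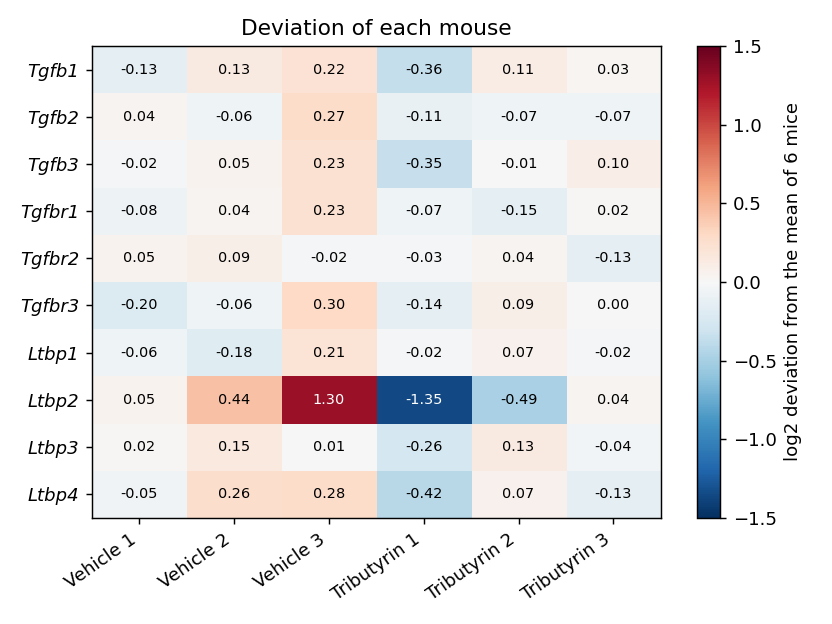
Deviation of each mouse from the mean of the 6 mice, in log2 units of normalized counts, for each gene (rows) and mouse (columns), red above and blue below the mean. The column of vehicle mouse 3 is above the mean for all genes but *Tgfbr2*, at up to 1.30 for *Ltbp2*, and that of Tributyrin mouse 1 is below it for all 10 genes.

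The gene with the nearest pattern to each of the 10 was taken from the other members and the pathway lists, as the smallest root mean square difference of centred log2 CPM (counts scaled to library size) over the 6 libraries among 96 candidates. *Tgfb1* and *Tgfb3* were nearest to each other, at 0.076 log2 units. *Ltbp4* was nearest to *Bgn*, which encodes the matrix proteoglycan biglycan, at 0.10. *Ltbp2* was nearest to *Cilp*, a fibroblast gene of the cartilage intermediate layer protein, but still 0.357 away. *Tgfbr1* and *Tgfb2* were both nearest to *Bmp4*, at 0.045 and 0.080, *Tgfbr2* to *Smad5* at 0.044, *Tgfbr3* to *Smad9* at 0.075, *Ltbp1* to *Skil* at 0.075 and *Ltbp3* to *Itgb5* at 0.070.

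The hearts are bulk tissue, in which fewer cells of a type and less RNA per cell cannot be told apart. Of 8 markers of cardiac fibroblasts, the main source of matrix in the heart, 2 were higher and 6 lower with Tributyrin, with a median log2 fold change of -0.11. Their summed level ran from 382.2 to 458.8 TPM with vehicle and from 341.7 to 402.1 with Tributyrin. Such TPM sums, here and below, are shares of the library, so the groups are compared by the log2 fold changes. The log2 fold changes were -0.01 for *Pdgfra*, 0.07 for *Tcf21*, -0.07 for *Ddr2*, 0.01 for *Dcn*, -0.15 for *Dpt*, -0.31 for *Lum*, -0.30 for *Col1a2* and -0.49 for *Mfap5*. Endothelial markers summed to between 268.9 and 301.8 TPM with vehicle and between 244.3 and 293.1 with Tributyrin, with a median log2 fold change of 0.04. For macrophages, the sum ran from 160.7 to 225.9 and from 154.8 to 213.4 TPM, with 7 of 7 genes lower and a median of -0.07. Pericyte markers had a median of 0.01, and mesothelial markers one of -0.14. Smooth muscle markers had a median of 0.32, and atrial ones -1.94 with 5 of 5 lower. Platelet, erythroid, Schwann cell and T cell markers had medians of 0.62, 0.11, 0.12 and 0.01, the last from 1 tested gene, and of 4 adipocyte markers 0 passed the filter. The part of these cell types in the values of the 10 genes was not tested.

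Around the 10 genes, 6 lists of pathway genes were examined, and 0 of their genes passed an FDR of 10% in edgeR. Of 18 genes for the release and activation of latent TGF-beta, 17 were tested, 5 higher and 12 lower with Tributyrin, with a median log2 fold change of -0.12. At an unadjusted p under 0.05, 3 were lower and 1 was higher, where 2.28% and 1.97% of all genes were. *Itgb8*, the beta subunit of an integrin that activates TGF-beta, had 96.7, 97.7 and 60.9 normalized counts with vehicle and 56.1, 58.5 and 40.1 with Tributyrin (log2 fold change -0.72, standard error 0.239). *Bmp1*, a protease that cleaves latent binders and procollagen, had 689.1, 680.8 and 680.8 against 561.1, 606.7 and 609.1 (-0.21, standard error 0.0786). *Thbs1*, the activator thrombospondin 1, was at -0.68 (standard error 0.176). *Lrrc32*, whose product GARP holds latent TGF-beta at the cell surface, was on the other side, at 306.6, 272.9 and 280.8 with vehicle and 357.2, 362.7 and 335.0 with Tributyrin (0.30, standard error 0.10). In each of these 4 genes, the 4 of smallest p among the 17 tested, the groups did not overlap. Of all genes tested, 8.91% did not overlap in either direction. Leaving out single mice took the count of lower genes at an unadjusted p under 0.05 from 1, without vehicle mouse 2, to 5, without Tributyrin mouse 2. Of all genes, 2.82% and 9.56% passed in these fits in either direction. The integrin subunits of highest level, *Itgb1* and *Itgb5*, had log2 fold changes of 0.01 and -0.04.

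Of 15 extracellular anchors and binders all were tested, 5 higher and 10 lower, with a median log2 fold change of -0.16. At an unadjusted p under 0.05, 2 were lower and 0 higher, against 2.28% and 1.97% of all genes. *Cd109*, a membrane protein that binds TGF-beta and restrains its signal, had 42.6, 71.3 and 65.8 normalized counts with vehicle and 18.7, 34.7 and 20.6 with Tributyrin. That is a log2 fold change of -1.27 (standard error 0.313, unadjusted p = 0.00217 by edgeR). The groups did not overlap in 4 genes of this list, *Cd109* among them, where 8.91% of all genes tested did not. *Fmod*, for the proteoglycan fibromodulin, was at -0.83 (standard error 0.348) from 277.5, 221.0 and 314.3 to 58.0, 191.0 and 209.9. Those of *Aspn* (asporin) and *Lrg1* were -0.33 and 0.21. *Tgm2*, the transglutaminase that links latent complexes to the matrix, was at -0.07. *Fbn1* and *Fn1*, for the fibrillin and fibronectin on which latent complexes are laid down, were at -0.25 (standard error 0.166) and -0.32 (standard error 0.189), named outside the rule after their values were seen. Beside *Lrg1*, the genes of this list above 0 were *Fbn2* at 0.15, *Eln* at 0.14, *Fbln5* at 0.09 and *Htra1* at 0.02, likewise outside the rule.

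For the intracellular arm, 19 of 20 Smads and regulators were tested, 5 higher and 14 lower, with a median log2 fold change of -0.06 and values from -0.19 to 0.12. None had an unadjusted p under 0.05. The groups did not overlap in 1 of these 19 genes, where 8.91% of all genes tested did not. *Smad3*, which carries the fibrogenic signal, was at -0.19 (standard error 0.103), *Smad1* at -0.13, *Smurf2* at -0.10, *Zfyve9* at 0.10, *Ski* at -0.04 and *Smad4* at 0.01. Of the receptors and co-receptors of the wider family 8 of 11 were tested, with 0 at an unadjusted p under 0.05 and values from -0.15 to 0.14. The first of these by p was *Eng*, endoglin, an endothelial co-receptor, with 3904.0, 3699.5 and 3911.0 normalized counts with vehicle and 4119.1, 4420.5 and 4130.8 with Tributyrin (0.14, standard error 0.0681). Its groups did not overlap, which held for 1 of the 8 genes tested here and for 8.91% of all genes tested. *Bmpr1a*, *Bmpr2*, *Acvr1* and *Acvr2b* were at -0.01, 0.05, -0.12 and -0.15.

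Of the other ligands of the family 13 of 15 were tested, 6 higher and 7 lower, and 3 were lower at an unadjusted p under 0.05, against 2.28% of all genes. Without Tributyrin mouse 1 the count was 0, where 3.74% of all genes passed in either direction. The 3 were *Gdf15*, a stress-induced ligand, at -0.96 (standard error 0.379), *Gdf6* at -0.68 (standard error 0.308) and *Bmp2* at -0.67 (standard error 0.284), all with mean levels of 60.5 normalized counts or fewer in either group. *Inhba*, for the activin A subunit, was at -0.56, *Bmp4* at -0.22 and *Bmp6*, the most abundant of them, at 0.05. The groups did not overlap in 1 of the 13 genes tested, *Gdf6*, where 8.91% of all genes tested did not.

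The last list held 22 genes known to rise with TGF-beta signalling in fibroblasts, and 21 were tested, 6 higher and 15 lower, with a median log2 fold change of -0.20. At an unadjusted p under 0.05, 5 were lower and 1 was higher, against 2.28% and 1.97% of all genes. The lower ones were *Loxl2* at -0.57, *Col8a1* at -0.56, *Col5a1* at -0.40, *Col1a1* at -0.46 and *Cilp* at -0.60. *Col8a1*, a short-chain collagen, had 573.8, 825.0 and 832.4 normalized counts with vehicle and 413.3, 503.5 and 598.8 with Tributyrin. The higher one was *Cnn1*, smooth muscle calponin, at 0.71 (standard error 0.258). The 4 smooth muscle markers were at 0.59 (*Myh11*), 0.63 (*Lmod1*), 0.04 (*Smtn*) and -0.18 (*Myocd*). The genes of highest level in this list, *Id1* and *Acta2*, were at 0.21 and 0.11. Others were at -0.07 (*Ccn2*), -0.53 (*Postn*), -0.39 (*Col3a1*), -0.76 (*Comp*), -0.93 (*Tnc*), 0.12 (*Lox*) and 0.08 (*Tagln*), each with an unadjusted p over 0.05. These 7 and *Col1a1* and *Cilp* lie outside the rule for naming genes and were chosen after their values were seen. Leaving out single mice took the count of lower genes at an unadjusted p under 0.05 in this list from 2 to 8. The 2 were found without vehicle mouse 3, where 2.68% of all genes passed in either direction. The 8 were found without vehicle mouse 1, where 4.9% did. With all mice, the groups did not overlap in 1 of the 21 genes tested, *Loxl2*, where 8.91% of all genes tested did not.

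**Figure D5:**
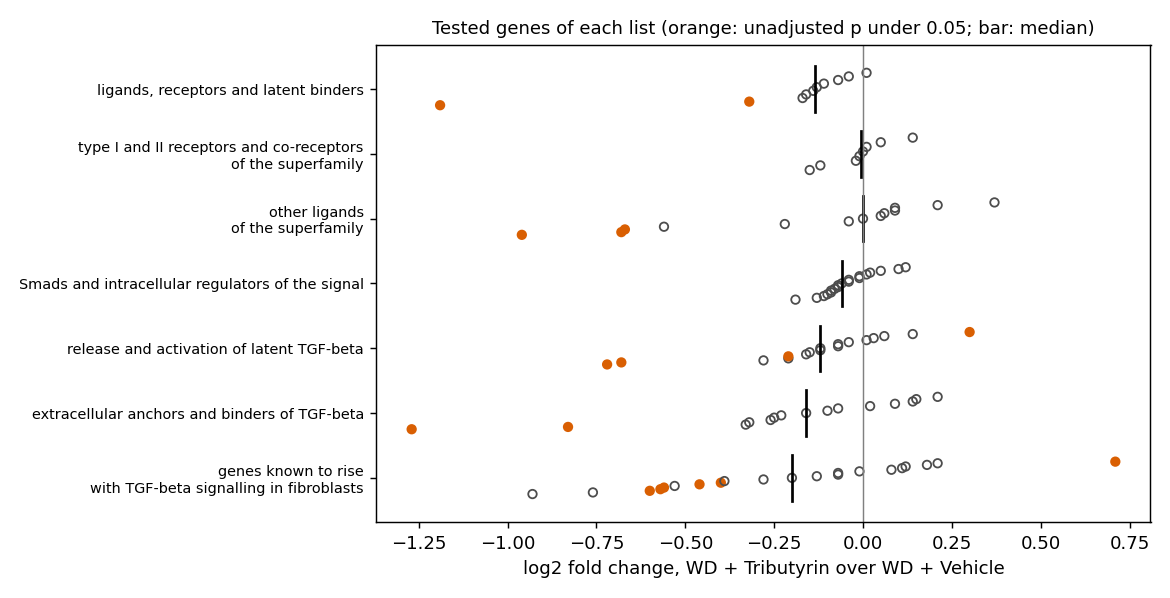
Log2 fold change of Tributyrin over vehicle for each tested gene of the 10 members and of the 6 pathway lists, with orange filled points for an unadjusted p under 0.05 in edgeR and a black bar at the median. Medians run from -0.20 for the genes known to rise with the signal to about 0 for the other ligands and receptors, and single genes reach -1.27 (*Cd109*) and 0.71 (*Cnn1*).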

How the data were processed

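Heart ventricle RNA of 6 mice was measured by stranded mRNA sequencing with single-end reads. The authors trimmed adapters (cutadapt 1.13, from the submitters' processing notes), removed poor reads and reads on rRNA, aligned to mm10 with STAR and counted reads per gene with HTSeq 0.6.1p1. They deposited these counts without normalization. The sources used here give neither the annotation release nor the strand setting. Of 54232 identifiers, 54079 matched GENCODE M21 (GRCm38), which gave symbols, positions and exonic lengths. No 2 libraries agreed within sampling noise (chi-square per degree of freedom from 6.67 to 28.2 over 15 pairs).

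The groups were compared with edgeR 4.0.16 (quasi-likelihood test, TMM scaling, filterByExpr with a minimum count of 10 and minimum total of 15, no covariate, p-values adjusted over all genes tested by the Benjamini-Hochberg method) in R 4.3.3. The study used DESeq2, which is an alternative here (1.42.0), as are limma-voom (limma 3.58.1), other scalings and filters, a robust prior, the replicate number as a block, and each mouse left out. Intervals of fold changes use the t distribution of the test. The models weigh each library by its depth. No set test was run. The members, lists and tests were chosen with earlier results of these data known.

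The genes named are all 10 members, from each list the 4 with the smallest unadjusted p and the 2 of highest mean TPM, the gene of nearest pattern (mean CPM of at least 1, with 0.5 added before the log2), and markers. Exceptions are named where they stand. Some results are not reported here. The edgeR step was tested on simulated data modelled on the Tributyrin and vehicle mice (3 draws, 14167 genes, 200 of them changed). At an FDR of 10% it found 11.4% of genes with a log2 change of 0.3, 79.2% of those with 1 and 97.3% of those with 2. False genes made up 14.6% of what it called, and 25.4% when no filter was applied (24277 genes). These rates hold for data with 200 changed genes and for genes of all degrees of spread. They need not hold in the deposited data, where 0 of 14133 genes passed, or for a gene as variable as *Ltbp2*.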

Additional observations from a re-analysis of the deposited data

How the results depend on the processing

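Past an FDR of 10% stood 0 members in DESeq2, limma-voom and the edgeR fits with another scaling, the stricter filter, the robust prior or 1 mouse fewer, and 2 (*Ltbp2* and *Ltbp4*) without the filter on low counts, where 167 of all genes passed against 0 with it. DESeq2 passed 11 of 25578 genes, and the edgeR fit without the filter had 25581 genes. At an unadjusted p under 0.05 the count of members was 1 with a mean CPM of at least 5, a filter that removes *Ltbp2*. With each mouse left out it ran from 1 (without vehicle mouse 2 or 3, or Tributyrin mouse 1 or 3) to 3 (without Tributyrin mouse 2, where 9.56% of all genes passed, against 2.68% without vehicle mouse 3), and the count of members whose groups did not overlap ran from 2 to 5 (5 without vehicle mouse 1 or Tributyrin mouse 2, where 19.5% and 27.3% of all genes did not overlap, and 4 without vehicle mouse 3, where 15.2% did not). *Tgfbr3* ran from -0.14 to 0.11 with each mouse left out and *Ltbp1* from -0.07 to 0.13. *Ltbp1* was at -0.06 with library size alone, which moves the median of all genes by less than 0.1 (to -0.074), and at -0.20 without both vehicle libraries of more atrial transcript. That setting gave 8 members whose groups did not overlap, where 45.8% of all genes did not. It was added after the data were seen, as were TMM scaling for the overlap and single mice left out of the lists. With single mice left out the count of lower genes ran from 0 to 2 for the other ligands (3 with all mice). For the Smads it ran from 0 to 1, and for release and activation from 1 to 5. For anchors and binders it ran from 1 to 5, and for genes known to rise with the signal from 2 to 8. Over the same fits the share of all genes at an unadjusted p under 0.05 in either direction ran from 2.68% to 9.56%. The 5 for release and activation came without Tributyrin mouse 2, at 9.56% of all genes. The 5 for anchors and binders came without Tributyrin mouse 3, at 4.57%. Where no cause is named, the cause was not tested.

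No source says that equal replicate numbers mark a shared litter or day. Deviations of same-numbered samples correlated at 0.214, 0.0375 and 0.0147, and 4 of 6 samples were nearest to their own number, which does not make them pairs. A fit with the replicate number as a block gave 0 members at an FDR of 10% and 2 at an unadjusted p under 0.05, and 2 of all genes at 10%.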
